A study of Mus musculus with 3 samples.

Results

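The genes described here are 10 members of the WNT and R-spondin pathway in embryonic mouse kidney: the Frizzled receptors Fzd1, Fzd4, Fzd6 and Fzd10, the R-spondin receptors Lgr4 and Lgr5, the R-spondins Rspo1 and Rspo3, and the feedback inhibitors Nkd1 and Dkk1. They were taken by name from 17864 gene symbols that all 3 deposited count tables share, and all 10 were found. The kidneys were wild type, at E14.5, of a mixed background that is mostly CD-1 and 129. Single cells were measured in 3 libraries, 1 each by Drop-seq, 10x Chromium and Fluidigm C1. Drop-seq and 10x capture cells in droplets and count transcripts by unique molecular identifiers (UMIs). C1 captures cells in chip chambers, and its values are read counts. No platform has a second library, and the labels do not tie a library to particular animals.

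Clusters of cells were named in each library from marker genes listed for each class, and a name below stands for a cluster whose markers resemble that class. The 5 classes compared are nephron epithelium (511 Drop-seq, 373 10x and 195 C1 cells), stroma (446, 796 and 299), ureteric epithelium (175, 154 and 73), endothelium (101, 383 and 78) and cap mesenchyme, the nephron progenitors (579, 200 and 216). Immune cells were few, with 11 Drop-seq, 55 10x and 14 C1 cells. Nephron epithelium was the highest class for 21, 24 and 17 of its 26 markers in Drop-seq, 10x and C1. For stroma the numbers were 15, 14 and 15 of 17, and for ureteric epithelium 16, 16 and 15 of 17. All endothelium markers were highest in endothelium in each library. All 8 cap mesenchyme markers were highest in cap mesenchyme in each library. C1 stood apart from the droplet libraries: the summed level of those 8 markers in C1 endothelium was 396 counts per 1000000 counts (CPM), in C1 ureteric epithelium 403 and in C1 immune cells 999, against 2112 CPM in C1 cap mesenchyme. In 10x the same sums were 27.2, 47.2 and 6.61 CPM, against 2057 CPM in cap mesenchyme, and in Drop-seq 98.6, 76.3 and 39.2 CPM, against 1468 CPM. One C1 cap mesenchyme cluster of 52 cells also carried stromal markers, with a summed stromal marker level of 2572 CPM, against 269 and 652 CPM in the other C1 cap mesenchyme clusters. No cell name is shared between libraries. A level below is the CPM of a class, that is, the gene's counts summed over the cells of the class, scaled to the total of those cells, with an exact 95% Poisson interval that covers counting error only.

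WNT ligands bind a Frizzled receptor together with the co-receptor LRP5 or LRP6, and the signal stabilises beta-catenin, which acts on genes with TCF and LEF factors. R-spondins are secreted proteins that bind LGR4, LGR5 and LGR6 and remove the ubiquitin ligases ZNRF3 and RNF43 from the cell surface, which leaves more Frizzled there. NKD1 binds Dishevelled inside the cell and DKK1 is a secreted inhibitor that binds LRP5 and LRP6, and in many tissues both genes are themselves switched on by the pathway. In the developing kidney WNT signals from the ureteric bud act on the cap mesenchyme, both to keep progenitors and to start nephron formation.

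In the GENCODE M21 annotation of GRCm38, Rspo1 lies on chromosome 4 (124986430 to 125009099, plus strand), Rspo3 on chromosome 10 (29452416 to 29535867, minus strand), Lgr4 on chromosome 2 (109917647 to 110014257, plus strand), Lgr5 on chromosome 10 (115450311 to 115587780, minus strand) and Dkk1 on chromosome 19 (30545863 to 30549665, minus strand). Fzd1 lies on chromosome 5 (4753839 to 4758035, minus strand), Fzd4 on chromosome 7 (89404355 to 89413134, plus strand), Fzd6 on chromosome 15 (39006034 to 39038188, plus strand), Fzd10 on chromosome 5 (128600844 to 128604093, plus strand) and Nkd1 on chromosome 8 (88521354 to 88594884, plus strand). Exons of Rspo3 share 404 of 3090 bases (13.1%) with the antisense gene Gm48159, and exons of Fzd6 share 152 of 4818 bases (3.15%) with the antisense gene Gm26704. Since the sources used here do not give the strand setting of the counting, reads from those stretches cannot be told apart. The other 8 genes share no exonic base with another gene.

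Start-site windows of 7 of the 10 genes were found in the RefSeq table (GRCm38.p6, 250 bases before to 50 bases after the start). A search of both strands for the TCF/LEF letters CTTTG followed by AA, AT, TA or TT matched the Dkk1 window at 2 places, at positions -117 and -98 from the RefSeq start, and matched none of the windows of Fzd1, Fzd4, Fzd10, Lgr4, Rspo1 and Nkd1. Of 32851 windows in the table, 16.9% hold at least 1 match. The SP/KLF letters GGGCGG, searched the same way, matched the windows of Fzd4 and Fzd10 and 35.7% of all windows. The RefSeq start lies 169 bases downstream of the GENCODE gene start for Dkk1, 262 for Fzd10, 11 for Fzd4 and 6279 for Nkd1, so the Nkd1 window is not at its GENCODE gene start. For Fzd1 the offset is -181 bases, and for Lgr4 and Rspo1 it is 0. The windows of Dkk1 (the inhibitor, chr19:30549447-30549746, minus strand), Rspo1 (the ligand, chr4:124986180-124986479, plus strand) and Lgr4 (its receptor, chr2:109917397-109917696, plus strand) are shown as the 3 genes on which the comparison of source and receptor turns, 5′ to 3′, with TCF/LEF letters in capitals.
Dkk1: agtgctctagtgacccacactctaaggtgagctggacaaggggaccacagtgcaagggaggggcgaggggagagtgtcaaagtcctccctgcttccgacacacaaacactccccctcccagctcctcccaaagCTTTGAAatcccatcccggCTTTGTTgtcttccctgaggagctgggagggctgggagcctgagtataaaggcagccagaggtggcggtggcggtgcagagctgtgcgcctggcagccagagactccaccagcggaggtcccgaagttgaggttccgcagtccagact
Rspo1: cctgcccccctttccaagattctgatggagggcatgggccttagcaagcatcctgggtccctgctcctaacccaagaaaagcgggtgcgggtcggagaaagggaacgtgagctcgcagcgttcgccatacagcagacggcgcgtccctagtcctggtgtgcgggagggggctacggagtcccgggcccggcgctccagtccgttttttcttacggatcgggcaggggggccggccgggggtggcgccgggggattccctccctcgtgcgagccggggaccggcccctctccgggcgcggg
Lgr4: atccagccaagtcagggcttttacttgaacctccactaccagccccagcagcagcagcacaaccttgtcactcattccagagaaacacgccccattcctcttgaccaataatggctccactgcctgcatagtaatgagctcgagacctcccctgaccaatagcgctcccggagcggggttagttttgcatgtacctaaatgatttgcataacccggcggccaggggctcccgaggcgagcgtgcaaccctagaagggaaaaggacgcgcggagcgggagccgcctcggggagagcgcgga

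Rspo1 was highest in cap mesenchyme among the classes compared, in all 3 libraries. In Drop-seq it stood at 18.4 CPM in nephron epithelium, 11.4 in stroma, 2.38 in endothelium and 2.35 in ureteric epithelium, against 49.9 CPM (interval 43.7 to 56.8) in cap mesenchyme. In 10x the same order of classes gave 42.9, 14.4, 1.36 and 0.726 CPM, against 199 CPM (178 to 221) in cap mesenchyme, and in C1 23.0, 14.3, 14.4 and 11.4 CPM, against 72.0 CPM (69.4 to 74.7). Within each library none of those 4 classes reached the level of cap mesenchyme, but the 10x nephron epithelium came close to the Drop-seq cap mesenchyme. Cap mesenchyme held 55.5% of all Rspo1 counts in kept Drop-seq cells, 52.5% in 10x and 56.1% in C1.

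Rspo3, the second ligand, was also highest in cap mesenchyme among the 5 classes, and stroma and endothelium came next. Its Drop-seq level was 16.1 CPM in nephron epithelium, 41.4 in stroma, 40.4 in endothelium and 5.18 in ureteric epithelium, against 82.7 CPM (74.7 to 91.4) in cap mesenchyme. In 10x it was 8.06, 39.0, 30.4 and 0 CPM in those classes, against 156 CPM (138 to 176) in cap mesenchyme. No UMI of Rspo3 was found in 154 ureteric cells of 10x, which allows a share of up to 1.95% of cells with one. C1 gave 26.3, 54.3, 54.0 and 31.5 CPM, against 143 CPM (139 to 147) in cap mesenchyme.

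**Figure D1:**
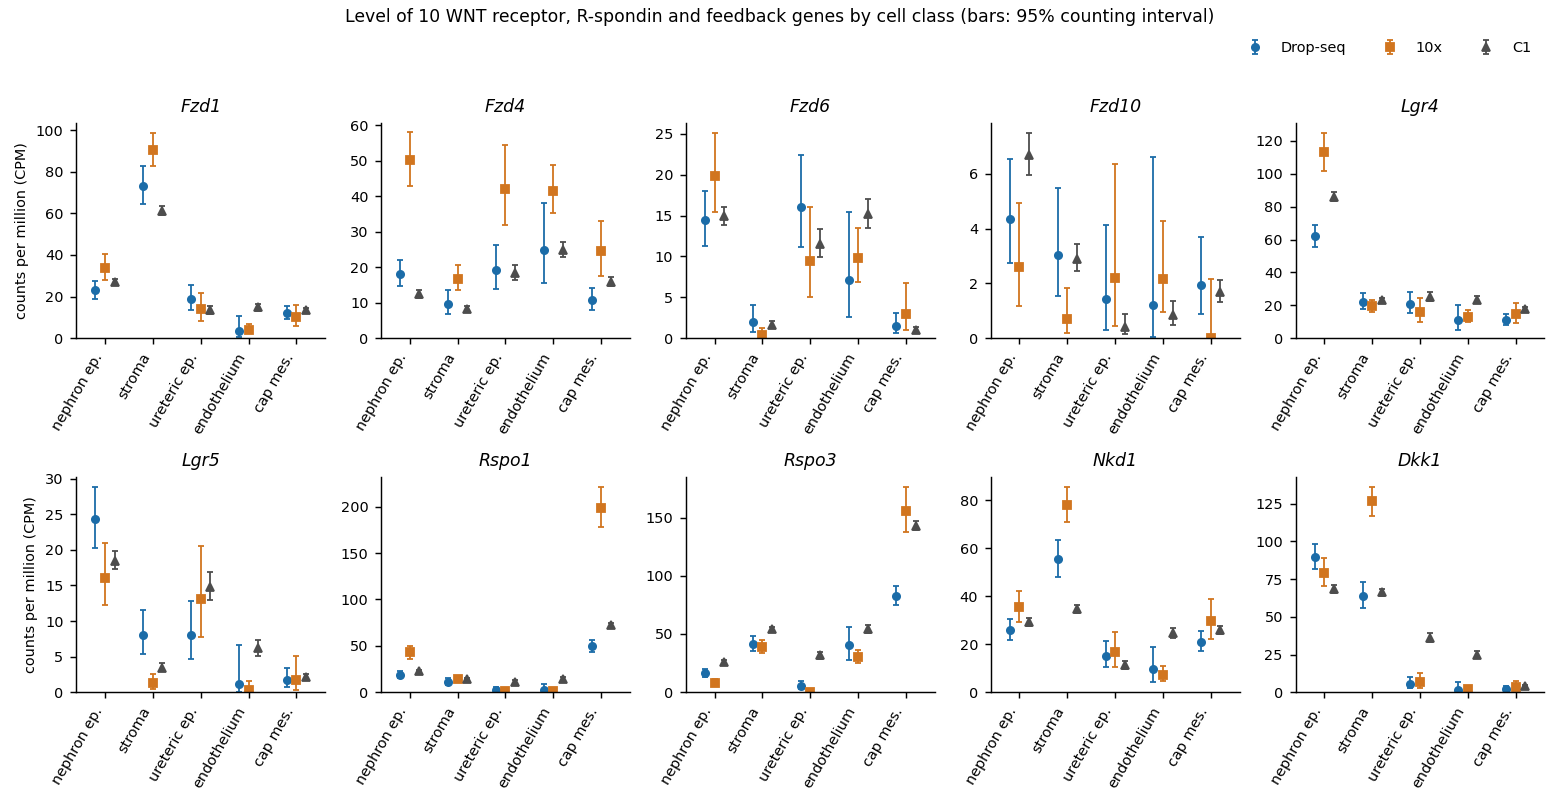
Level of each gene by cell class, in CPM on linear axes with a range of its own per gene. Each point is 1 library and each bar its 95% Poisson interval. Rspo1 and Rspo3 are highest in cap mesenchyme, Lgr4 in nephron epithelium and Fzd1 in stroma among the classes compared, in all 3 libraries.

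The fit across libraries set 4 classes against cap mesenchyme with edgeR's quasi-likelihood test, the library as a block and Benjamini-Hochberg adjustment over 10403 genes. These 4 comparisons share the cap mesenchyme sums. Against cap mesenchyme, Rspo1 was lower in stroma (a log2 ratio of -3.04, SE 0.76, adjusted p = 0.0348), in ureteric epithelium (-4.06, SE 0.85, adjusted p = 0.0132) and in endothelium (-3.81, SE 0.85, adjusted p = 0.0139), and lower in all 3 libraries each time. Rspo3 was lower in nephron epithelium (-3.05, SE 0.64, adjusted p = 0.0239) and in ureteric epithelium (-3.38, SE 0.67, adjusted p = 0.0106), again in all 3 libraries. Rspo1 in nephron epithelium (-1.95, adjusted p = 0.166) and Rspo3 in stroma (-1.65, adjusted p = 0.112) and endothelium (-1.67, adjusted p = 0.0943) missed the threshold of 0.05, though their values were below those of cap mesenchyme in every library. Each of the 5 calls was lost without Drop-seq, with adjusted p from 0.157 to 0.271. Rspo1 in stroma was also lost without the low-count filter (0.0518), without the library block (0.246) and at resolution 1.0 (0.0544), and both Rspo3 calls without the block (0.198 in nephron and 0.0704 in ureteric epithelium). Rspo1 in nephron epithelium passed without C1 (adjusted p = 0.00727). With cells assigned one by one by marker score, Rspo3 passed in stroma (adjusted p = 0.0362) and in endothelium (0.0184).

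The share of cells with an Rspo1 UMI was likewise highest in cap mesenchyme among the 5 classes in both droplet libraries. After every cell was thinned to 4000 UMIs, Rspo1 was seen in 5.72% of nephron epithelium cells, 2.30% of stromal cells, 0% of ureteric cells and 0.99% of endothelial cells in Drop-seq, against 16.4% of cap mesenchyme cells. In 10x the thinned shares were 12.4%, 3.09%, 0.741% and 0.578%, against 53.6% of cap mesenchyme cells. Without thinning, 79.0% of 10x cap mesenchyme cells (interval 72.7 to 84.4%) and 28.3% of Drop-seq cap mesenchyme cells held an Rspo1 UMI, at median depths of 8334 and 6790 UMIs a cell. No Rspo1 UMI was found in 55 immune cells of 10x, at a median of 5163 UMIs, which allows a share of up to 5.45% of cells with a UMI (3 of 55). In C1, 6 of 14 immune cells (42.9%) held an Rspo1 read, against 70.4% of C1 cap mesenchyme cells, so C1 shares near that value are not read as expression.

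In endothelium nearly all R-spondin counts of the droplet libraries came from Rspo3. Endothelium held 2 Rspo1 and 34 Rspo3 UMIs in Drop-seq and 5 Rspo1 and 112 Rspo3 UMIs in 10x, against 231 and 383 UMIs in cap mesenchyme of Drop-seq and 341 and 268 in cap mesenchyme of 10x. In C1 the reads were 291 and 1093 in endothelium, against 2872 and 5696 in cap mesenchyme. The difference in balance between endothelium and cap mesenchyme was not tested. Stroma showed the same leaning in the droplet libraries, with 41 Rspo1 and 149 Rspo3 UMIs in Drop-seq and 81 and 219 in 10x. Within 10x endothelium, Rspo3 was 41.8 CPM in the Aplnr-led cluster and 43.0 CPM in the Klf2-led cluster, and 8.28 CPM in the Esm1-led cluster.

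Among 4 cap mesenchyme clusters picked in the droplet libraries, levels differed in Rspo3 more than in Rspo1. Other Drop-seq cap clusters are not described, so this holds for the 4 picked only. The Rspo3 level was 155 CPM in the largest Drop-seq cluster, led by Cited1, and 238 CPM in the 10x cluster led by Cited1 and Crym. It was 14.6 CPM in a Drop-seq cluster of 53 cells led by Tmem100 with Wnt4 among its top genes, and 79.1 CPM in the other 10x cap cluster. Rspo1 in the same 4 clusters was 55.6, 221, 27.3 and 177 CPM. The Tmem100-led cluster took its cap name on a low marker score (0.146, against 0.021 for the next class). Its summed markers were 718 CPM for cap mesenchyme and 625 CPM for nephron epithelium. In the largest Drop-seq cluster these sums were 1878 and 361 CPM. The part of these markers in the R-spondin levels was not tested. Rspo3 was itself among the top genes of the largest Drop-seq cluster and of the 10x cluster led by Cited1 and Crym. Rspo1 was among the top genes of both 10x clusters. Members were kept out of the genes that shaped the clusters, but the clusters picked here were chosen for their values, so these levels are a description. Podocytes, named in the droplet libraries only, held Rspo1 at 50.9 CPM (36.2 to 69.6) in Drop-seq, level with the 49.9 CPM of all cap mesenchyme there, and at 121 CPM in 10x, and early nephron epithelium held 16.3, 84.2 and 32.8 CPM in Drop-seq, 10x and C1.

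Lgr4, a receptor of the R-spondins, was highest in nephron epithelium in every library, and its groups of values did not overlap with those of any other class. In nephron epithelium it stood at 62.0 CPM (55.4 to 69.1) in Drop-seq, 113 CPM (102 to 125) in 10x and 86.1 CPM (83.4 to 88.9) in C1, against 11, 14.6 and 17.5 CPM in cap mesenchyme. Stroma held 22.2, 19.4 and 23.0 CPM, ureteric epithelium 20.7, 16.0 and 25.2 CPM, and endothelium 10.7, 13.0 and 23.3 CPM. Nephron epithelium held 58.7%, 61.9% and 58.8% of all Lgr4 counts in Drop-seq, 10x and C1.

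In the fit, Lgr4 was higher in nephron epithelium than in cap mesenchyme (log2 fold change 2.55, SE 0.24, adjusted p = 2.51e-05), and higher than in ureteric epithelium (2.08, SE 0.23, adjusted p = 6.91e-05). In stroma it was lower than in nephron epithelium (-2.06, SE 0.22, adjusted p = 2.24e-05). These 3 calls were kept in each of the 14 alternatives run, with log2 fold changes of 2.37 to 2.68, 1.71 to 2.28 and -2.27 to -1.74. The thinned share of Lgr4 cells in nephron epithelium was 21.7% in Drop-seq and 33.5% in 10x, against 4.63% and 7.26% in cap mesenchyme.

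Lgr5, the second R-spondin receptor and a stem cell marker in other epithelia, was also highest in nephron epithelium, with ureteric epithelium next in 10x and C1 and level with stroma in Drop-seq. Its level was 24.3 CPM (20.2 to 28.8) in Drop-seq, 16.1 CPM (12.2 to 20.9) in 10x and 18.5 CPM (17.3 to 19.8) in C1 nephron epithelium, and 8.0, 13.1 and 14.8 CPM in ureteric epithelium, against 1.73, 1.75 and 2.11 CPM in cap mesenchyme. The cap mesenchyme levels rest on 8 UMIs in Drop-seq and 3 in 10x. Stroma held 8.05 CPM (29 UMIs), 1.25 CPM (7 UMIs) and 3.46 CPM. Against cap mesenchyme it was higher in nephron epithelium (log2 fold change 3.49, SE 0.65, adjusted p = 0.00417) and in ureteric epithelium (2.74, SE 0.66, adjusted p = 0.0111), in all 3 libraries both times. Without Drop-seq these calls were lost, with adjusted p of 0.102 in nephron epithelium and 0.0852 in ureteric epithelium, and likewise without the library block (0.108 and 0.139). The ureteric call rests on 17 UMIs in Drop-seq and 18 in 10x, and in C1 the ureteric level was 23.5 CPM in cells whose column names start with E14 and 3.45 CPM in cells whose names start with HT. With those name groups as separate libraries the ureteric call was lost (adjusted p = 0.0581). The sources used here do not give the meaning of the names. Summed nephron epithelium markers stood at 1252, 834 and 1340 CPM in ureteric epithelium of Drop-seq, 10x and C1, and at 810, 298 and 276 CPM in stroma. Their part in the Lgr5 levels was not tested.

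Along the nephron the receptors had different profiles. Lgr4 was 84.2, 126 and 128 CPM in proximal tubule and 56.0, 135 and 53.7 CPM in early nephron epithelium of Drop-seq, 10x and C1. Lgr5 was 13.4, 0 and 9.69 CPM in proximal tubule, and 36.9, 13.8 and 25.3 CPM in early nephron epithelium. The Drop-seq proximal tubule is made of 2 clusters. The one led by Osr2 took its name by a narrow margin over early nephron epithelium (marker scores of 0.511 and 0.438) and held Lgr5 at 16.7 CPM (25 UMIs), and the one led by Sult1d1 held 2.23 CPM (1 UMI). The 10x early nephron class is 1 cluster (137 cells), with Osr2, Clu, Car4 and Gm17750 among its top genes, as in that Osr2-led cluster. Its marker scores were 0.967 for early nephron epithelium and 0.447 for proximal tubule. The stages may thus hold different cells in each library, here and wherever levels are given by stage. The Lgr5 peak lay in 1 cluster a library: 58.6 CPM in a Drop-seq cluster with Fgf8, Sim1, Lhx1 and Tfap2b among its top genes, 37.8 CPM in a 10x cluster with Tfap2b, Irx1, Fgf8 and Lhx1, and 56.7 CPM in a C1 cluster of early nephron epithelium. The Drop-seq cluster took the early nephron name and the 10x cluster the distal name, which sets the order of those classes for Lgr5. The C1 library gave no cluster named distal or podocyte.

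**Figure D2:**
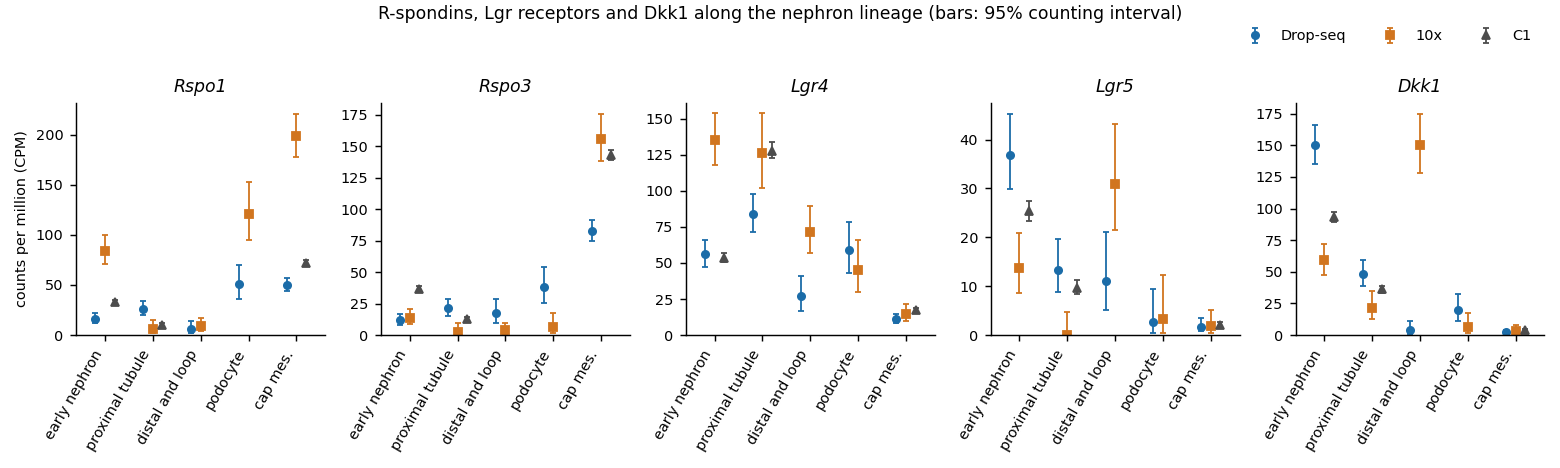
Levels of Rspo1, Rspo3, Lgr4, Lgr5 and Dkk1 in the stages of nephron epithelium and in cap mesenchyme, in CPM on linear axes; points are libraries and bars 95% Poisson intervals. In proximal tubule the R-spondins lie between 2.55 and 26.2 CPM and Lgr4 between 84.2 and 128 CPM, and C1 has no point for distal nephron or podocyte. A stage may hold different cells in each library.

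The shares of cells with a ligand and with a receptor ran in opposite directions in nephron epithelium and cap mesenchyme. In 10x nephron epithelium, 22.3% of cells held a UMI of Rspo1 or Rspo3 and 55.5% a UMI of Lgr4 or Lgr5, against 89.0% and 11% of cap mesenchyme cells. In Drop-seq nephron epithelium the shares were 19.8% and 44.6%, against 48.9% and 9.67% in cap mesenchyme. Cells with both a ligand and a receptor UMI made up 15.3% of nephron epithelium in 10x and 9.39% in Drop-seq, against 10.5% and 4.66% of cap mesenchyme. The contrast was weaker in C1, with 59% and 69.2% in nephron epithelium, against 84.7% and 38% in cap mesenchyme. C1 cells with both made up 41% and 32.4% of these classes. Even C1 immune cells held a ligand read in 57.1% and a receptor read in 35.7% of cells. These shares are not thinned and are a description.

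Of the 5 classes, Fzd1 was highest in stroma in all 3 libraries, with nephron epithelium second in each. Stroma held 73.3 CPM (64.7 to 82.7) in Drop-seq, 90.4 CPM (82.8 to 98.7) in 10x and 61.4 CPM (59.2 to 63.7) in C1, against 11.9, 9.90 and 13.4 CPM in cap mesenchyme. Nephron epithelium held 22.9, 33.7 and 26.9 CPM, ureteric epithelium 18.8, 13.8 and 13.3 CPM, and endothelium 3.56, 4.07 and 14.8 CPM. The lowest stromal value lay above every value of the other classes. The ratio to cap mesenchyme was 6.17-fold in Drop-seq, 9.14-fold in 10x and 4.58-fold in C1.

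The fit put Fzd1 above cap mesenchyme in stroma (2.55 on the log2 scale, SE 0.34, adjusted p = 0.00044), a call kept in each of the 14 alternatives, with values from 2.17 to 2.87. It was also higher in stroma than in nephron epithelium (1.39, SE 0.31, adjusted p = 0.00642), a call lost without Drop-seq (adjusted p = 0.112), without the library block (0.129) and at clustering resolution 2.0 (0.062). Fzd1 in nephron epithelium was above cap mesenchyme in all 3 libraries, and the difference missed the threshold (1.16, adjusted p = 0.0525). It passed with C1 left out (1.19, adjusted p = 0.00103) and without doublet removal (1.45, adjusted p = 0.0363). The difference also passed with DESeq2 and with a minimum of 1000 genes. The 2 C1 name groups gave 62.4 and 60.6 CPM in stroma, against 2.99 and 17.1 CPM in cap mesenchyme. Thinned shares of cells with an Fzd1 UMI were 27.2% and 28.9% in stroma of Drop-seq and 10x, against 4.09% and 3.35% in cap mesenchyme.

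Of the 5 classes, Fzd4, known as a receptor of vascular development, was lowest in stroma in each library and highest in endothelium in Drop-seq and C1 and in nephron epithelium in 10x. Endothelium held 24.9 CPM (15.4 to 38.1) in Drop-seq, 41.5 CPM (35.2 to 48.7) in 10x and 24.9 CPM (22.8 to 27.2) in C1, against 10.8, 24.5 and 15.9 CPM in cap mesenchyme. Nephron epithelium held 18.0, 50.1 and 12.4 CPM, ureteric epithelium 19.3, 42.1 and 18.4 CPM, and stroma 9.72, 16.7 and 8.10 CPM. The libraries differ in scale for this gene, so the groups overlap across libraries.

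Fzd4 was higher in endothelium than in cap mesenchyme (log2 fold change 0.86, SE 0.24, adjusted p = 0.0163), in all 3 libraries. The call was lost in 6 of the 14 alternatives: without Drop-seq (adjusted p = 0.217), without 10x (0.116), without the library block (0.582), with the per-cell marker score (0.324), without doublet removal (0.116) and with C1 name groups apart (0.0883). Stroma was below endothelium (-1.59, SE 0.24, adjusted p = 0.000258), below ureteric epithelium (-1.19, SE 0.24, adjusted p = 0.00238) and below nephron epithelium (-1.12, SE 0.23, adjusted p = 0.00355). The stromal calls against ureteric and nephron epithelium were lost without Drop-seq (adjusted p = 0.054 and 0.075) and without 10x (0.06 and 0.203). All 3 stromal calls were lost without the library block (adjusted p from 0.271 to 0.45) and with the per-cell marker score (0.0502 to 0.111).

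Fzd6 was present in nephron epithelium, ureteric epithelium and endothelium and close to the counting limit in stroma and cap mesenchyme. Nephron epithelium held 14.4 CPM (11.3 to 18.0) in Drop-seq, 19.9 CPM (15.4 to 25.1) in 10x and 14.9 CPM (13.8 to 16.1) in C1, against 1.51, 2.91 and 0.978 CPM in cap mesenchyme. Ureteric epithelium held 16.0, 9.43 and 11.5 CPM, endothelium 7.13, 9.78 and 15.2 CPM, and stroma 1.94, 0.356 and 1.65 CPM. Cap mesenchyme levels rest on 7 UMIs in Drop-seq and 5 in 10x, and stromal levels on 7 and 2. No value of nephron epithelium, ureteric epithelium or endothelium overlapped with those of stroma or cap mesenchyme.

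Against cap mesenchyme, Fzd6 was higher in nephron epithelium (log2 fold change 3.52, SE 0.53, adjusted p = 0.00072), ureteric epithelium (3.06, SE 0.54, adjusted p = 0.00116) and endothelium (3.10, SE 0.55, adjusted p = 0.000701), in all 3 libraries. Without Drop-seq the adjusted p was 0.0556 in nephron and 0.0691 in ureteric epithelium, while the endothelial call was kept in each of the 14 alternatives, with values from 1.89 to 3.46. In 10x endothelium, 7 of the 36 Fzd6 UMIs came from the 15 cells of the cluster with Gja5 and Sox17 among its top genes, a level of 87.2 CPM. Within the nephron, Fzd6 was 15.4, 31.8 and 24.4 CPM in proximal tubule and 9.93, 13.2 and 7.62 CPM in early nephron epithelium.

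Fzd10 was near the counting limit in the droplet libraries and low in C1. Nephron epithelium held 4.36 CPM (23 UMIs) in Drop-seq, 2.59 CPM (9 UMIs) in 10x and 6.69 CPM in C1, against 1.94 CPM (9 UMIs), 0 CPM and 1.68 CPM in cap mesenchyme. The C1 nephron epithelium level rests on 301 reads, of which 76 came from 1 cell. No class differed from cap mesenchyme for Fzd10 by the test, with the smallest adjusted p of 0.244 in nephron epithelium. Podocytes, which entered no test, held 11.8 CPM in Drop-seq and 10.1 CPM in 10x, above the other nephron stages in both.

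Of the 10 members, 5 passed the threshold in nephron epithelium against cap mesenchyme (4 higher and 1 lower), where 6.26% of the 10403 genes tested passed. In stroma 3 passed, against 11.6% of all genes tested, in ureteric epithelium 4 passed, against 15.1%, and in endothelium 3 passed, against 20.6%. The members were kept out of the variable genes, and variable genes were left out of the test, so these background shares lack many of the genes that differ most between classes. Of these 15 calls, 7 remained without the library block, 3 with Drop-seq left out, 12 with 10x left out and 15 with C1 left out. Between the other class pairs, 5 members passed in stroma against nephron epithelium (15.9% of all genes tested), 4 in stroma against ureteric epithelium (17.3%), 5 in stroma against endothelium (18.2%) and 1, Lgr4, in nephron against ureteric epithelium (4.91%). In nephron epithelium against endothelium 4 passed, Dkk1, Fzd1, Lgr4 and Lgr5 (19.8%), and in ureteric epithelium against endothelium 1, Lgr5 (22.7%). The median log2 fold change of the members was 1.45 in nephron epithelium, 0.55 in stroma, 0.34 in ureteric epithelium and 0.24 in endothelium, beside -0.05, -0.10, -0.08 and -0.07 over all genes tested.

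**Figure D3:**
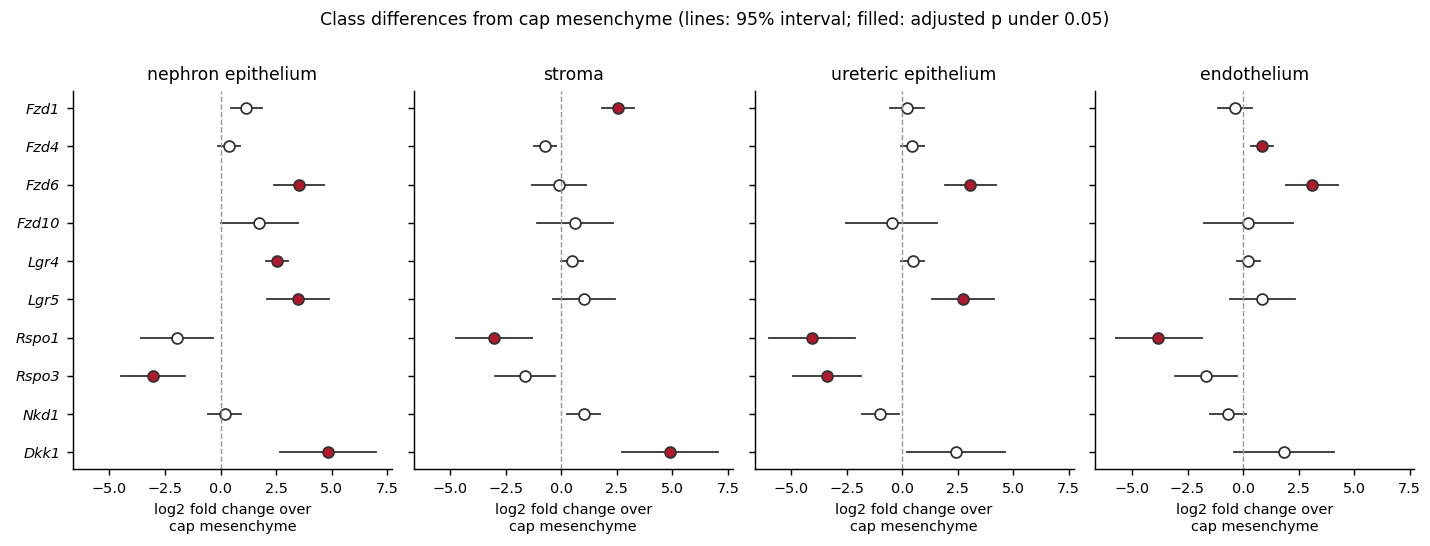
Log2 fold change of each gene in 4 classes over cap mesenchyme, from the fit over 3 libraries, with 95% intervals; filled points have an adjusted p under 0.05. Lgr4, Lgr5, Fzd6 and Dkk1 lie above 0 in nephron epithelium and Rspo3 below, and Fzd1 and Dkk1 lie above 0 in stroma and Rspo1 below; the 4 panels share the cap mesenchyme sums.

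Nkd1, the intracellular inhibitor, was highest in stroma in each library. Stroma held 55.3 CPM (47.8 to 63.5) in Drop-seq, 78.0 CPM (70.8 to 85.6) in 10x and 34.6 CPM (32.9 to 36.3) in C1, against 21.0, 29.7 and 25.9 CPM in cap mesenchyme. Nephron epithelium held 26.0, 35.4 and 29.1 CPM, ureteric epithelium 15.1, 16.7 and 11.3 CPM, and endothelium 9.50, 7.33 and 24.5 CPM. The C1 stroma value lay below the 10x nephron epithelium value, so stroma and nephron epithelium overlapped across libraries.

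Stroma stood above ureteric epithelium (log2 fold change 1.98, SE 0.38, adjusted p = 0.00243) and above endothelium (1.67, SE 0.37, adjusted p = 0.00764) for Nkd1, calls that were lost without Drop-seq (adjusted p = 0.0719 and 0.135), the second also without 10x (0.0937). Against cap mesenchyme the stromal difference of Nkd1 missed the threshold (1.01, SE 0.35, adjusted p = 0.0786) and passed without C1 (1.32, adjusted p = 2.16e-05), without doublet removal (0.0231) and at clustering resolutions 1.0 (0.0424) and 2.0 (0.0378). The C1 cap mesenchyme cluster with stromal markers held Nkd1 at 68.0 CPM, against 13.5 and 15.7 CPM in the other C1 cap clusters, and Fzd1 at 37.1 CPM, against 2.58 and 12.1 CPM. Without clusters that lacked a class marker among their top 10 genes, an alternative chosen after seeing the data, Nkd1 gave 1.3 with an adjusted p of 0.0621.

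Dkk1, the secreted inhibitor, was high in nephron epithelium and stroma and near the counting limit in cap mesenchyme. Nephron epithelium held 89.8 CPM (81.9 to 98.3) in Drop-seq, 79.4 CPM (70.3 to 89.3) in 10x and 68.5 CPM (66.1 to 71.0) in C1, and stroma 64.1, 127 and 66.3 CPM, against 2.38 CPM (11 UMIs), 3.49 CPM (6 UMIs) and 3.99 CPM in cap mesenchyme. Endothelium held 1.19, 1.90 and 24.9 CPM and ureteric epithelium 5.65, 6.53 and 36.0 CPM, so that C1 stood apart from both droplet libraries in these classes. C1 immune cells held 52.5 CPM of Dkk1, and immune cells of both droplet libraries none. Of those C1 reads, 90 came from 1 cell. No cap mesenchyme value reached any value of stroma or nephron epithelium.

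Against cap mesenchyme, Dkk1 was higher in stroma (a log2 ratio of 4.88, SE 0.95, adjusted p = 0.0143) and in nephron epithelium (4.85, SE 0.95, adjusted p = 0.0197), in all 3 libraries. Both calls were lost without Drop-seq (adjusted p = 0.169 and 0.268), without 10x (0.106 and 0.113), and with cells assigned one by one by marker score, where the log2 fold changes were 2.69 and 3.11. They were also lost at clustering resolutions 1.0 (adjusted p = 0.0916 and 0.128) and 2.0 (0.0518 and 0.0648) and without the library block (0.103 and 0.07). Stroma and nephron epithelium could not be ranked for Dkk1, with a difference of 0.04 (95% interval -1.57 to 1.64) for stroma over nephron epithelium. The thinned share of cells with a Dkk1 UMI was 19.5% and 13.8% in nephron epithelium and 13.8% and 18.1% in stroma of Drop-seq and 10x, against 1.25% and 0.559% in cap mesenchyme.

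In nephron epithelium the Dkk1 peak lay in the droplet clusters that held the Lgr5 peak, with 214 CPM in Drop-seq and 185 CPM in 10x. In C1, the cluster of the Lgr5 peak held 97.9 CPM and another early nephron cluster, with Hes5 and Pax8 among its top genes, 112 CPM. That second cluster carried summed stromal markers of 1334 CPM, above its nephron epithelium markers of 978 CPM, and their part in its Dkk1 level was not tested. Proximal tubule held 48.3, 21.7 and 36.1 CPM and podocytes 19.6 and 6.73 CPM. In Drop-seq, 89 of the proximal UMIs came from the narrowly named Osr2-led cluster (59.4 CPM) and 5 from the Sult1d1-led cluster (11.1 CPM).

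Stroma was not uniform in either inhibitor. Dkk1 was 279 and 372 CPM in the pair of 10x nephrogenic-zone clusters with Fibin and Gdnf among their top genes, where Rspo3 was 20.6 and 15.5 CPM. In the other nephrogenic-zone clusters of 10x, led by Ntn1 and C1qtnf2, Dkk1 was 44.7 and 16.5 CPM and Rspo3 66.0 and 101 CPM. Both Drop-seq zone clusters gave Dkk1 of 52.8 and 28.3 CPM with Rspo3 of 41.7 and 83.0 CPM, whereas in C1 a zone cluster of 34 cells held both, Dkk1 at 97.7 and Rspo3 at 123 CPM. Markers of cap mesenchyme, the class where Rspo3 is highest, moved with Rspo3 in several of these clusters. Their summed level was 490 CPM in the Ntn1-led and 82.5 CPM in the C1qtnf2-led cluster of 10x, and 49.3 and 28.1 CPM in the pair high in Dkk1. In Drop-seq it was 989 CPM in the zone cluster with Rspo3 of 83.0 CPM and 43 CPM in the other. In C1 it was 1246 CPM in the cluster of 34 cells, beside 1507 CPM of stromal markers, and 33 CPM in the other zone cluster, where Dkk1 was 84.5 and Rspo3 34.8 CPM. The part of these markers in the Rspo3 levels was not tested. These clusters were picked for their values, and Dkk1 was itself among the top genes of the first pair, so the levels are a description. Fzd1 and Nkd1 were both highest, among 10x stromal clusters, in the cluster led by Car3, Actg2 and Lum (319 and 284 CPM) and in the one led by Penk and Alx1 (155 and 256 CPM). The Drop-seq cluster led by Car3, Lum and Dcn held 101 CPM of Fzd1 and 87.2 CPM of Nkd1, the highest stromal values there. In C1 the cluster with Penk and Alx1 among its top genes was highest for Nkd1 (76.9 CPM) and second for Fzd1 (65.8 CPM).

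**Figure D4:**
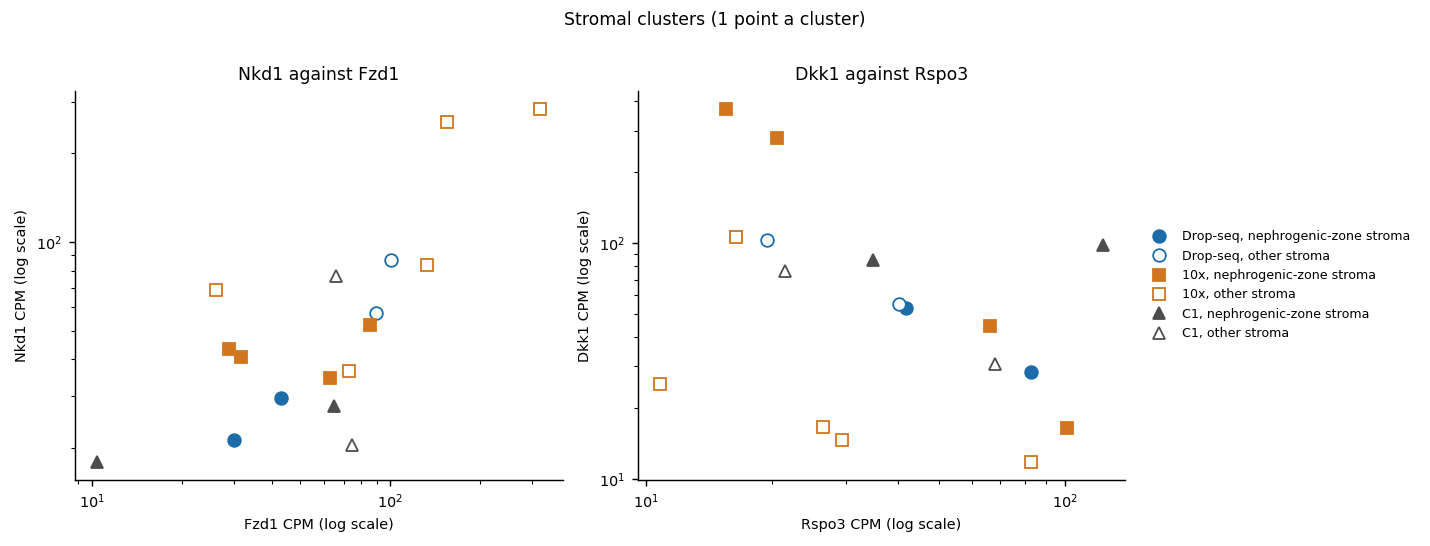
Stromal clusters of the 3 libraries on log axes in CPM, Nkd1 against Fzd1 on the left and Dkk1 against Rspo3 on the right; filled points are nephrogenic-zone clusters and open points other stroma. The 10x clusters with Fzd1 of 155 and 319 CPM also have the highest Nkd1, and the 10x clusters with Dkk1 of 279 and 372 CPM have Rspo3 of 20.6 and 15.5 CPM.

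Between nephrogenic-zone stroma and other stroma, no member passed the threshold, and 0.054% of the 9264 genes tested there did (5 genes by edgeR, 55 by DESeq2). At an unadjusted p under 0.05, 5 of the 10 members differed, as did 1077 of the 9264 genes. Fzd1 was 37.7, 52.8 and 49.4 CPM in zone stroma of Drop-seq, 10x and C1, against 95.5, 135 and 71.3 CPM in other stroma (log2 fold change -1.06, SE 0.35, adjusted p = 0.28). Nkd1 was 26.1, 41.9 and 24.9 CPM in zone stroma, against 73.4, 121 and 42.5 CPM in other stroma (-1.28, SE 0.43, adjusted p = 0.287). Both were lower in zone stroma in all 3 libraries, and without C1 both passed (adjusted p = 0.0348 and 0.0438). Different clusters make up the zone in each library, as the leading genes above show.

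Ordered by mean log2 level over the 5 classes, neighbouring classes differed by the test in 3 of 40 pairs: Fzd1 between stroma and nephron epithelium, Lgr4 between nephron epithelium and stroma, and Fzd6 between endothelium and cap mesenchyme. For the other pairs the order is not settled. That holds for the top of the order of Fzd4, Fzd6, Fzd10, Lgr5, Rspo1, Rspo3, Nkd1 and Dkk1, whose highest 2 classes were not separated at an adjusted p of 0.05. For Rspo1, Rspo3 and Nkd1 the unadjusted 95% interval of that difference still lay above 0 (0.33 to 3.56, 0.25 to 3.08 and 0.09 to 1.54 on the log2 scale).

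Likeness to other genes was measured by Pearson's r over 16 class sums (log2 CPM centred within each library), which share libraries and classes. Rspo1 was most like Uncx (0.97), one of the markers that named cap mesenchyme, and Rspo3 most like Sncaip (0.978). Lgr5 was most like Sim1 (0.955) and Lhx1 (0.950), a pair of transcription factors, the second of which also served to name early nephron epithelium. Fzd1 was most like Fmo2 (0.953), Nkd1 like Nkain4 (0.929) and Dkk1 like Cldn1 (0.949). Fzd4 was most like Arhgef12 (0.959), Fzd6 like Prkag2 (0.935) and Fzd10 like 5930412G12Rik (0.881).

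In stroma over cap mesenchyme 11.6% of all genes tested were called, 481 higher and 728 lower. Among the rest of the pathway, that comparison showed 4 of 15 tested antagonists and feedback genes higher and none lower, with a median log2 fold change of 1.67: the secreted inhibitors Dkk2 (4.05, adjusted p = 5.51e-05), Sfrp1 (3.25, adjusted p = 0.00728), Sfrp4 (2.82, adjusted p = 0.0293) and Dkk3 (2.28, adjusted p = 0.0131). Of 10 other receptors and co-receptors, Ror2 was higher (1.74, adjusted p = 0.0482) and Ryk lower (-0.67, adjusted p = 0.0165). Of 13 ligands and secretion genes, Wnt5a (2.98, adjusted p = 0.0191), Wnt11 (2.31, adjusted p = 0.00779) and the WNT carrier Wls (1.52, adjusted p = 0.000592) were higher and Wnt8b was lower (-2.96, adjusted p = 0.044). Of 15 transduction genes, Lef1 was higher (2.23, adjusted p = 0.0127) and Tcf7l1 (-0.68, adjusted p = 0.015) and Apc (-0.55, adjusted p = 0.0465) lower. None of the 3 tested genes of the R-spondin arm besides the members, Lgr6, Rnf43 and Znrf3, passed in stroma or in nephron epithelium.

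Nephron epithelium over cap mesenchyme shared some of these, with Lef1 (3.0, adjusted p = 0.00263) and Wls (1.53, adjusted p = 0.000549) higher and Tcf7l1 (-1.35, adjusted p = 0.000143) and Ryk (-0.67, adjusted p = 0.0239) lower. Among the 15 antagonists and feedback genes only Sostdc1, a secreted inhibitor, was higher there (5.70, adjusted p = 0.0238), and none was lower, a share near the 6.26% of all genes called in that comparison. Both comparisons use the same cap mesenchyme sums.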

How the data were processed

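Counts were deposited by the authors as 3 tables of genes by cells, raw UMI counts for Drop-seq and 10x and raw read counts for C1. The submitters' processing notes name Cell Ranger 1.3.0 (10x), Bowtie2 2.2.7 (C1 and Drop-seq) and build mm10. Per the labels' protocols, all 3 samples carry the Drop-seq text; the sources used here do not give strand settings or the meaning of the C1 column names.

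Cells with at least 500 genes and at most 20% mitochondrial counts were kept (1964 Drop-seq, 2130 10x and 883 C1 cells, with medians of 7060 and 7369 UMIs and 166712 reads). Scrublet removed 17 10x and 11 C1 doublets; in Drop-seq it called 0.255% of cells, was treated as failed and removed none. Each library was clustered on its own (scanpy 1.11.5, 2000 variable genes, 30 components, 15 neighbours, Leiden resolution 1.5), with WNT, cell cycle, mitochondrial, ribosomal and haemoglobin genes kept out, and clusters were named by their markers. Cells outside the 6 classes (141 Drop-seq, 169 10x and 8 C1) entered no class comparison.

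Counts were summed per library and class of at least 20 cells, which gave 16 sums, and tested with edgeR 4.0.16 (two-sided quasi-likelihood F test, TMM, filterByExpr, library as a block, Benjamini-Hochberg adjustment at 0.05). Genes used for clustering or naming were left out of the test. All 10 members passed the filter on low counts. With 1 library a platform, p-values measure the spread between platform libraries, which may be technical. Intervals are exact Poisson for levels and Clopper-Pearson for shares (95%), and the limit for a share of 0 is 3 cells of the total. Shares were thinned to 4000 UMIs, or 50000 reads in C1. All members are described; other pathway genes are named where they passed in stroma or nephron epithelium over cap mesenchyme, and clusters were picked after their values were seen. Alternatives covered scaling, DESeq2 1.42.0, the low-count filter, the block, clustering resolution, a per-cell marker score, doublets, a minimum of 1000 genes, C1 name groups, clusters without a marker among their top 10 genes, and each library left out. The fit was tested on simulated data. Members and lists were chosen with earlier results of these data known. The gene most like Lgr4 is not reported here.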

Additional observations from a re-analysis of the deposited data

Results flagged for a closer look

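Some differences ran in opposite directions in different libraries, and with 1 library a platform the difference between libraries was not tested. The C1 ratios rest on reads, many of which can come from 1 cell. Fzd6 in stroma over cap mesenchyme had a log2 ratio of -3.03 in 10x, which rests on 2 UMIs in stroma and 5 in cap mesenchyme, and 0.75 in C1. Fzd4 in nephron epithelium over cap mesenchyme had log2 ratios of 0.74 in Drop-seq and 1.03 in 10x, and -0.36 in C1. In nephrogenic-zone over other stroma, Lgr5 had a log2 ratio of -3.07 in Drop-seq and 1.67 in C1. Rspo1 had a log2 ratio of 1.04 in Drop-seq and -0.72 in C1 in the same comparison. Dkk1 had log2 ratios of 1.63 in 10x and 0.87 in C1 there, and -0.86 in Drop-seq. Summed nephron epithelium markers stood at 810 CPM in Drop-seq stroma, against 298 CPM in 10x stroma and 276 CPM in C1 stroma. They were 1530 CPM in the Drop-seq cluster led by Car3, Lum and Dcn, which is part of other stroma. The part of these markers in the Lgr5 and Dkk1 ratios was not tested.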

How the results depend on the processing

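Of 50 comparisons of a member (10 genes in 5 comparisons), 15 passed the threshold, and these 15 kept their direction in all 14 alternatives. Lgr4 in nephron epithelium, Fzd1 in stroma and Fzd6 in endothelium, each over cap mesenchyme, passed in every alternative. Of the other 35 comparisons, 14 changed sign in at least 1 alternative and 12 passed the threshold in at least 1. The number of the 15 calls that remained was 15 with RLE scaling, DESeq2 or a minimum of 1000 genes, 14 without the low-count filter or without doublet removal, 13 with C1 name groups apart or at resolution 2.0, and 12 at resolution 1.0 or with the per-cell marker score. It was also 15 without clusters that lacked a class marker among their top 10 genes, an alternative chosen after seeing the data. Over all genes tested, 1209, 651, 1566 and 2142 were called in stroma, nephron epithelium, ureteric epithelium and endothelium over cap mesenchyme, and 5 between zone and other stroma. Without the library block these counts were 14, 43, 223, 389 and 0. With the per-cell marker score 604 were called in stroma, 892 in ureteric epithelium and 2 between zone and other stroma, and 6 neighbouring class pairs of the members differed in place of 3. With C1 name groups apart 1035 were called in ureteric epithelium. The zone comparison gave 55 calls with DESeq2, 12 without the low-count filter, 0 without doublet removal and 14 with a minimum of 1000 genes. Without doublet removal 5 neighbouring class pairs differed. With each library left out in turn, calls ranged from 171 to 1480 in stroma, 84 to 1244 in nephron epithelium, 290 to 1971 in ureteric epithelium, 718 to 2762 in endothelium and 0 to 10 between zone and other stroma, and neighbouring class pairs from 2 to 12. The lowest of each came without Drop-seq, or equally without 10x in the zone, and the highest without C1. The causes of these differences between settings were not tested. Of 150 pairs of a member's level and an alternative, 118 stayed within the counting interval and 2 moved by over 1.5 times, both with the per-cell marker score. Classes were compared within each library through the library block, and the labels give no replicate numbers that pair libraries. Depth limits Fzd10 in the droplet libraries and Fzd6 in stroma and cap mesenchyme. It also limits Lgr5 and Dkk1 in cap mesenchyme of the droplet libraries, and Lgr5 in 10x stroma.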
